A study of Mus musculus with 12 samples.

Results

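The amyloid precursor protein gene *App*, its close relative *Aplp2* and 7 genes of the secretases that cut their proteins were followed in cultured mouse microglia, the resident macrophages of the brain. The 9 genes were taken by symbol from a table of 48623 genes. They are *App* and *Aplp2* (substrates), *Adam10* and *Adam17* (alpha-secretase activity), *Bace1* (beta-secretase), and *Psen2*, *Ncstn*, *Aph1a* and *Psenen* (subunits of gamma-secretase). The libraries came from 6 primary cultures, 3 from wild type (WT) mice (T13, T33 and T43) and 3 from mice homozygous for a *Trem2* R47H knock-in (KI; T15, T22 and T32), all on the C57BL/6J background. Each culture gave 1 untreated library and 1 library from cells kept with 20 ng/ml IL-4 for 48 h, so that 12 libraries fell into 4 groups of 3. *Trem2* encodes a microglial surface receptor, and R47H is a coding variant linked to Alzheimer's disease in people. In this mouse line the allele also lowers *Trem2* mRNA through altered splicing, so the KI cultures carry both the substitution and a partial loss of the transcript. Cells were taken from the cortex and hippocampus of newborn pups, grown for weeks as mixed glia, and freed of the astrocyte layer by mild trypsin. Per the study's methods, pups from litters of the KI line were cultured apart and genotyped afterwards, and the WT mice of the sequencing are described as their littermates.

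App is a membrane protein found in most cell types. When alpha-secretase cuts it first, a soluble ectodomain is shed and the amyloid-beta peptide cannot form. When beta-secretase cuts it first, gamma-secretase can release amyloid-beta from the stub that remains. Aplp2 is cut by the same classes of enzyme but its sequence holds no amyloid-beta. In microglia the same proteases act on many other surface proteins, among them cytokine receptors and TREM2 itself, and presenilin 2 is known to contribute to gamma-secretase in microglia.

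The promoter-proximal sequences of the 2 substrate genes are shown because the values below turn on these related genes, *App* for genotype and *Aplp2* for IL-4; the genes were not tested against each other. Each run covers the 250 bases before the transcription start site of RefSeq on the mouse GRCm38.p6 build, read on the gene's own strand. For *App* this is chr16:85173708-85173957 on the minus strand, and for *Aplp2* it is chr9:31211849-31212098 on the minus strand. Capitals mark the GC box, GGGCGG on either strand, a short motif to which Sp1-family factors bind.
App: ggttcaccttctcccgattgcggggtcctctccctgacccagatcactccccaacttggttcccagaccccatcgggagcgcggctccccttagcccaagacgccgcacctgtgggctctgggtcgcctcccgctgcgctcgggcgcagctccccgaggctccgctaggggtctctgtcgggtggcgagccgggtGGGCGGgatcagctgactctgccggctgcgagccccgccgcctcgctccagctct
Aplp2: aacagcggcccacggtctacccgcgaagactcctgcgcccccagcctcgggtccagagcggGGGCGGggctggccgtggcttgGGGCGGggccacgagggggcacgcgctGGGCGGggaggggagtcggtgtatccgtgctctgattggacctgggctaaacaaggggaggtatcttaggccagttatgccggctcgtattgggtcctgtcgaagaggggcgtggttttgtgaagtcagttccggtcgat
The *App* window held 1 GC box, whose first base lies 55 bases before the RefSeq start site, and 70.8% of its bases were G or C. On the GENCODE annotation *App* begins at chr16:85173766, inside this window, so that the box lies within the annotated gene. The *Aplp2* window held 3 GC boxes, at 189, 167 and 140 bases before the start site, and was 66.4% G or C. Windows were found for 8 of the 9 genes, 10 windows in all because *Psen2* and *Psenen* each had a pair of start sites, and *Bace1* had none in the table used. A GC box lay in 6 of these 10 windows, against 33% of all 32536 windows of the same length. CCAAT, also searched on both strands, lay in 4 of the 10 windows and in 33.8% of all windows. Neither TATAAA (12.3% of all windows) nor the STAT-type motif TTCNNNNGAA (5.89% of all windows) was found in the 10 windows on either strand. Only this spacing of the STAT motif was searched. No matches of different motifs overlapped. These matches describe letters in a window and not binding.

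Values are TPM, the share of a gene among all transcripts of a library, which corrects for transcript length and can be set side by side between genes. In untreated WT microglia the highest levels were those of *Psenen*, the subunit that activates the complex, at 159.9 ± 23.8 TPM (SD, n = 3), and *Aplp2* at 155.5 ± 12.5 TPM. *Ncstn*, which encodes the substrate-docking subunit nicastrin, followed at 127.5 ± 14.9 TPM and *App* at 122.6 ± 12.1 TPM. The ranges of neighbours among these 4 genes overlapped. *Psen2*, a catalytic subunit, and *Aph1a*, a scaffold subunit, stood below *App* at 81.2 ± 19.1 and 80.4 ± 10.4 TPM, with overlapping ranges. *Adam10* (69.4 ± 4.14 TPM) and *Adam17* (67.3 ± 5.40 TPM) did not differ beyond their spread. *Bace1* was far lower, at 3.23 ± 0.32 TPM. All 9 genes passed the filter for expressed genes, a mean log2(TPM + 1) above 1.5, which left 11204 genes for testing.

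**Figure D1:**
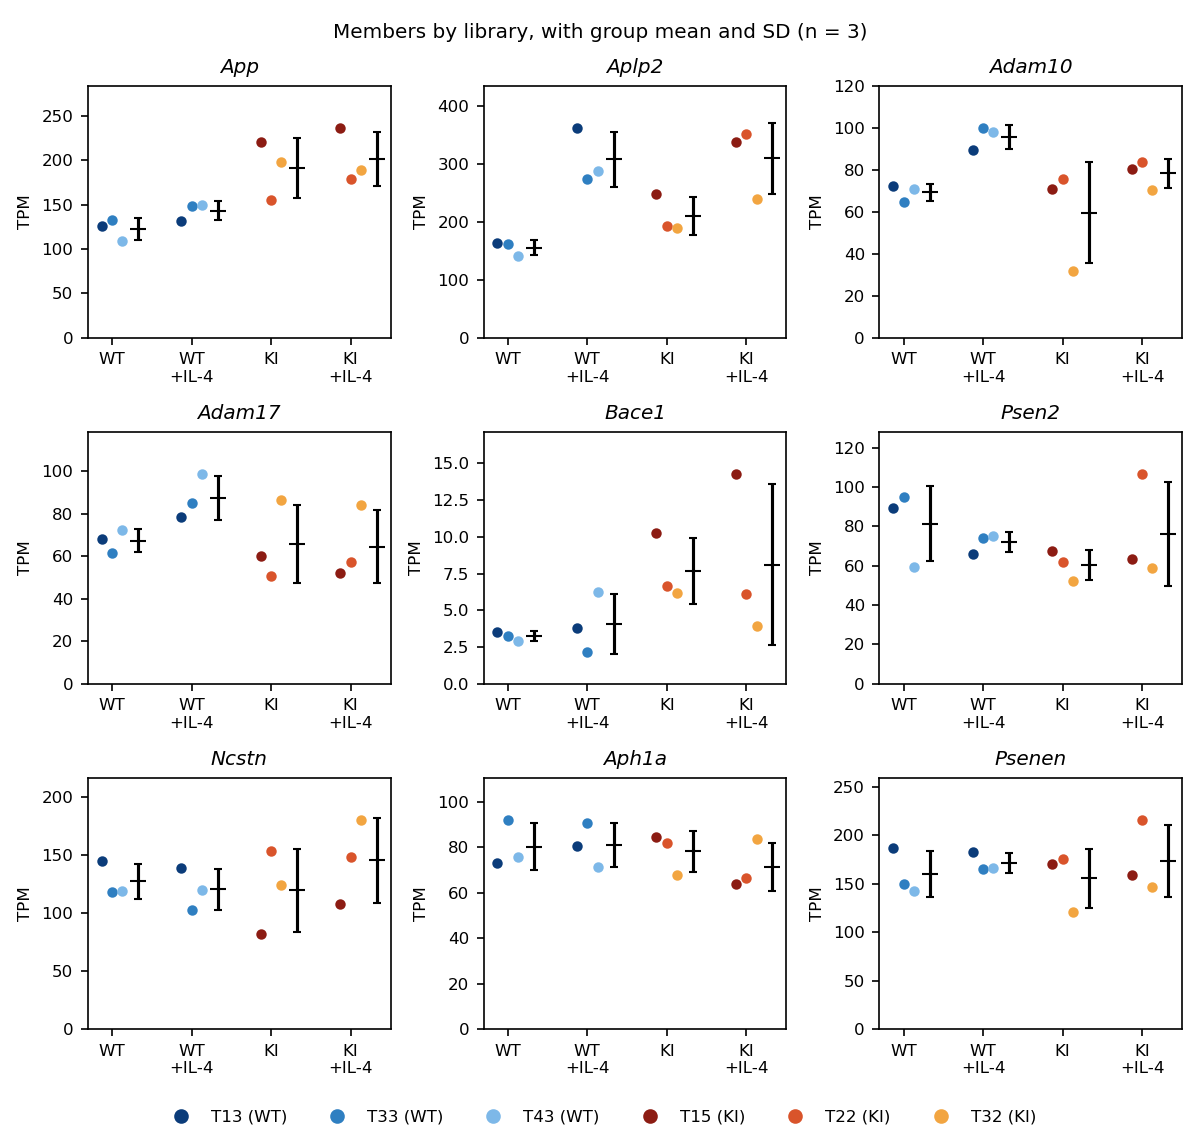
TPM of the 9 genes (vertical axes, linear from 0) in each of the 12 libraries, with points coloured by culture and the group mean ± SD (n = 3) in black. The KI points of *App* lie above all WT points in both treatments, those of *Bace1* above WT in untreated cells alone, and the IL-4 points of *Aplp2* lie above the untreated ones in WT.

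The modified gene was looked at first. *Trem2* stood at 1190 to 1886 TPM in the 6 WT libraries and at 325 to 770 TPM in the 6 KI libraries, and its log2 difference was -1.43 (SE 0.19, adjusted p = 0.00763; 0.108 without T33, 0.0781 without T43, 0.126 when genes of all levels were tested and 0.06 without the variance trend). Of 10 astrocyte markers, 9 were tested and all 9 had a higher estimate in KI, with 0 past the threshold. Their summed TPM was 166.5 to 693.1 in WT libraries and 220.6 to 4803 in KI libraries. Culture T15 (KI) stood apart, with sums of 4803 untreated and 3674 with IL-4, against at most 645.2 in the other KI libraries. Of 10 mural and fibroblast markers, 6 were tested, all 6 had a higher estimate in KI and 3 passed the threshold, and their sum was 176.1 to 667.7 in WT and 822.7 to 1511 in KI. The 18 microglia markers summed to 39420 to 52720 TPM in WT and 17180 to 38570 TPM in KI. All 18 had a lower estimate in KI and 5 passed. Neuron markers summed to at most 29.6 TPM in WT and 76.7 TPM in KI, with *Syt1* at 0 in every library. Oligodendrocyte-lineage markers summed to 69.5 to 150.9 TPM in WT and 142.9 to 546.8 TPM in KI, and 1 of 7 tested was called higher in KI. Among 5 endothelial markers, *Cldn5* and *Tek* were at 0 in every library and the sum was 19.4 to 141.1 TPM. In bulk RNA of this kind, fewer cells of a type and less RNA per cell cannot be told apart.

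*App* was the member with the clearest separation by genotype. Without IL-4, its level was 126 TPM in T13, 133 TPM in T33 and 109 TPM in T43 (WT), against 221 TPM in T15, 155 TPM in T22 and 198 TPM in T32 (KI); the same order of cultures holds for the values below. With IL-4 the WT cultures held 131, 149 and 149.6 TPM and the KI cultures 236, 179 and 189 TPM. Every KI library lay above every WT library of the same treatment, and the lowest KI value of all, 155 TPM in untreated T22, exceeded the highest WT value of all, 149.6 TPM. The group means were 1.56 times higher in KI without IL-4 and 1.41 times higher with it. Averaged over treatments, the difference in log2(TPM + 1) between KI and WT was 0.55 (SE 0.12, 95% CI 0.29 to 0.82). In limma's F-test of genotype across all genes this fell short of the threshold of 0.05 (adjusted p = 0.0699), and with culture as a random block it was further from it (adjusted p = 0.11). Tested on the averaged difference alone, *App* was past the threshold (adjusted p = 0.0221), as were 5.13% of all genes. It was also past it when culture T22 was left out (log2 difference 0.67, adjusted p = 0.046), a fit that called 180 of 11200 genes. The study, which tested read counts with DESeq2, lists *App* among the genes higher in KI at a false discovery rate under 0.05.

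T15, with the highest astrocyte marker sums, had the highest *App* values. In WT, T13 had the highest marker sums (693.1 TPM untreated and 619.4 TPM with IL-4), and its *App* values were not the highest of their groups. With the log2 astrocyte marker sum as a covariate, a fit added after the data were seen, the genotype difference of *App* was 0.40 (adjusted p = 0.324). The astrocyte sums of T22 and T32 (220.6 to 645.2 TPM) lay above all those of T33 and T43 (166.5 to 204.7 TPM). They were below the untreated sum of T13 (693.1 TPM). *App* in T22 and T32 was at 155 to 198 TPM. Without T15 the genotype difference of *App* was 0.44 (adjusted p = 0.207). Beyond these values the part of astrocyte RNA in the difference was not tested. In the 4 cultures without T13 and T15, whose sample names share a form of their own, the difference was 0.42 (adjusted p = 0.316). Every KI astrocyte sum lay above every WT one in these 4 cultures, so genotype and marker level go together there. The part of mural and fibroblast cells, whose lowest marker sum in KI (822.7 TPM) was above the highest in WT (667.7 TPM), was not tested.

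**Figure D2:**
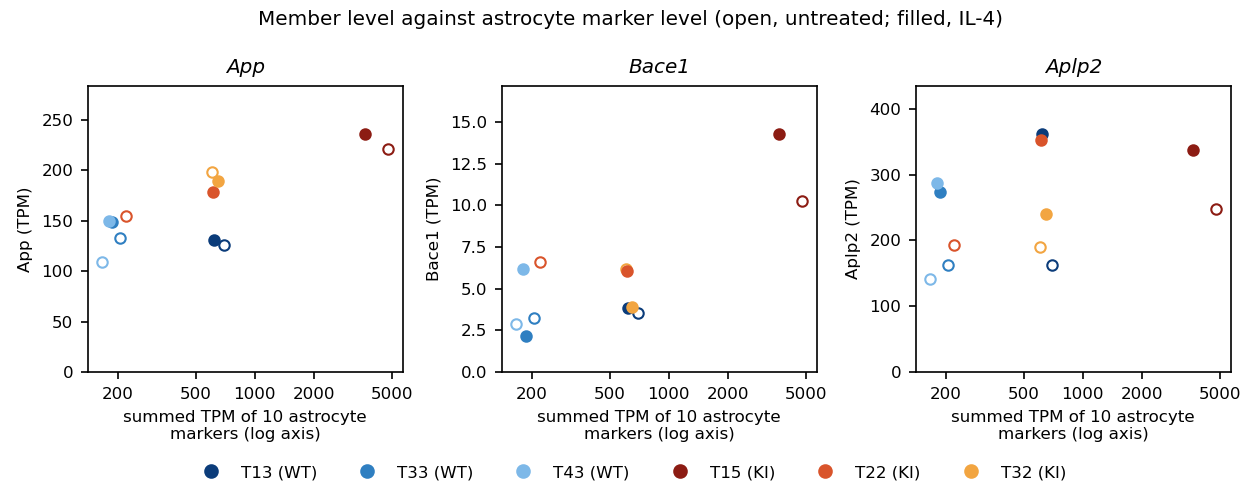
TPM of *App*, *Bace1* and *Aplp2* (vertical axes, linear from 0) against the summed TPM of 10 astrocyte markers (horizontal log axis) in 12 libraries, with open points untreated, filled points with IL-4, and colours for cultures. The 2 libraries of T15 lie far to the right at 3674 and 4803 TPM. The other KI libraries lie at 220.6 to 645.2 TPM, between T33 and T43 (166.5 to 204.7 TPM) and untreated T13 (693.1 TPM).

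*Bace1*, which encodes the enzyme that starts the amyloidogenic cut, showed the largest estimate by genotype among the 9 genes but also the widest error. Untreated WT cultures held 3.54, 3.26 and 2.90 TPM, and untreated KI cultures held 10.2, 6.62 and 6.15 TPM. With IL-4 it was at 3.82, 2.18 and 6.21 TPM in WT and at 14.3, 6.08 and 3.92 TPM in KI. The untreated groups did not overlap and the IL-4 groups did. The log2 difference between KI and WT was 0.88 (SE 0.36, 95% CI 0.12 to 1.65) and did not pass the test (adjusted p = 0.372). It was 0.55 without T15, the library pair with the most astrocyte marker RNA, and 0.51 with the astrocyte covariate (adjusted p = 0.823). Exons of *Bace1* overlap those of *Rnf214* and *Gm49338* on the opposite strand over 975 and 951 of its 6348 exonic bases, and the library kit does not mark strand, so that at such a low level reads of these genes cannot be fully told apart.

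For *Aplp2*, the values without IL-4 were 163, 162 and 141 TPM in WT and 248, 192 and 190.0 TPM in KI. These untreated groups did not overlap. With IL-4 the WT cultures were at 362, 274 and 287 TPM and the KI cultures at 337, 352 and 239.8 TPM, and the genotypes overlapped. The averaged log2 difference by genotype was 0.21 (SE 0.13, adjusted p = 0.435), and in the IL-4-treated libraries alone it was -0.0003. It was 0.06 under median-ratio scaling, 0.04 with the astrocyte covariate, 0.11 without T15 and 0.33 without T32. In limma's F-test of genotype, 0 of the 9 genes were called, and 1.65% of all 11204 genes were. At an unadjusted p under 0.05 the F-test gave 1 of the 9 genes, *App*, and 16.1% of all genes. In untreated libraries 3 of the 9 genes (*App*, *Aplp2* and *Bace1*) had every KI value above every WT value, as did 13.6% of all tested genes, and 0 had every KI value below, as did 4.55%. With IL-4, 1 of the 9 (*App*) had all KI values above, against 12.7% of all genes, and 1 (*Adam10*) had all KI values below, against 5.79%.

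The alpha-secretase genes did not pass the genotype test. ADAM10 is the main constitutive alpha-secretase and ADAM17 sheds TNF and its receptors. Untreated *Adam10* levels were 72.3, 64.6 and 71.2 TPM in WT, and 71.1, 75.8 and 31.9 TPM in KI. The value of 31.9 TPM in T32 lay far below the other 5. With IL-4 it was at 89.4, 100.1 and 98.0 TPM in WT and at 80.6, 84.0 and 70.7 TPM in KI, and these groups did not overlap. The averaged log2 difference of *Adam10* was -0.30 (SE 0.19, 95% CI -0.70 to 0.10, adjusted p = 0.665), and it shrank to -0.07 without T32. *Adam17* was at 61.5 to 98.8 TPM in WT and 50.8 to 86.4 TPM in KI libraries, with a log2 difference of -0.26 (SE 0.16, adjusted p = 0.532) that was -0.14 without T22, -0.47 without T32, -0.07 in untreated and -0.46 in IL-4-treated libraries alone. In KI, T32 held the highest *Adam17* values (86.4 untreated and 84.2 TPM with IL-4) and T15 and T22 stayed at 60.0 TPM or less.

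No gamma-secretase subunit separated by genotype. *Psen2* ranged from 59.4 to 94.9 TPM in WT and from 52.0 to 107 TPM in KI, with a log2 difference of -0.18 (95% CI -0.56 to 0.19) that was -0.05 without T32, -0.33 without T22 and -0.40 in untreated libraries alone. For *Ncstn* the ranges were 103 to 145 TPM in WT and 82.2 to 181 TPM in KI, and the log2 difference was 0.06 (95% CI -0.31 to 0.43), a sign that turned negative under quantile normalization (-0.06) and median-ratio scaling (-0.09). It was 0.28 with the astrocyte covariate and 0.38 (95% CI 0.07 to 0.70) in the 4 cultures T22, T32, T33 and T43, not past the threshold in either. *Aph1a* was at 71.5 to 92.2 TPM in WT and 64.0 to 84.5 TPM in KI, with a log2 difference of -0.11 (95% CI -0.39 to 0.17) that was -0.02 without T33 and -0.17 without T43. *Psenen* was at 143 to 187 TPM in WT and 121 to 216 TPM in KI, with a log2 difference of -0.02 (95% CI -0.32 to 0.27). Quantile normalization and median-ratio scaling made the log2 differences of *Psen2* (-0.32 and -0.33), *Aph1a* (-0.25 and -0.26), *Psenen* (-0.12 and -0.17), *Adam17* (-0.40 and -0.41) and *Adam10* (-0.44 and -0.45) larger in size, none past the threshold. Adjusted p-values of the 4 subunit genes on the deposited scale lay between 0.653 and 0.992. Within KI, untreated T15 had the lowest *Ncstn* value and untreated T32 the lowest *Psenen* and *Psen2* values of all 12 libraries.

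**Figure D3:**
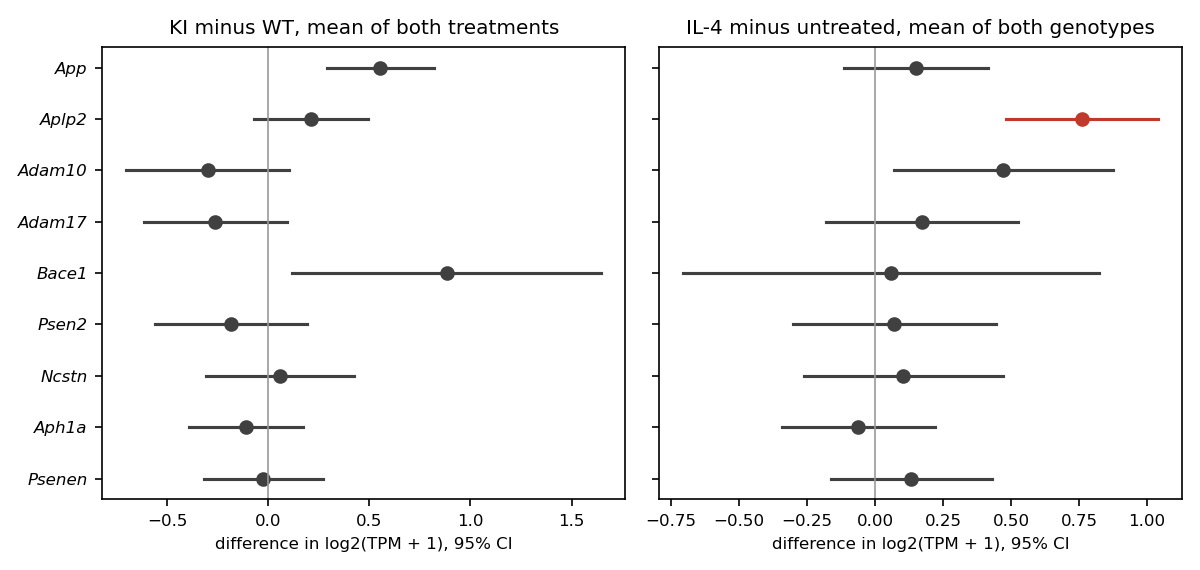
Difference in log2(TPM + 1) with its 95% CI for the 9 genes, KI minus WT averaged over treatments on the left and IL-4 minus untreated averaged over genotypes on the right. Red marks a gene past the adjusted threshold of the F-test, which was *Aplp2* with IL-4, and the intervals of *App* and *Bace1* (left) and *Adam10* (right) also lie above 0.

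IL-4 raised *Aplp2*. Its level was higher with IL-4 in 6 of 6 cultures, by 2.22, 1.69 and 2.04 times in the WT cultures T13, T33 and T43 and by 1.36, 1.83 and 1.26 times in the KI cultures T15, T22 and T32. In WT every IL-4 library lay above every untreated library, while in KI the IL-4 value of T32 (239.8 TPM) lay below the untreated value of T15 (248 TPM). The averaged log2 difference was 0.76 (SE 0.13, 95% CI 0.48 to 1.04), and *Aplp2* was the 1 member called for IL-4 (limma's F-test, adjusted p = 0.0219), where 0.893% of all genes were called. The call was lost (adjusted p 0.0707 to 0.246) when culture T13, T33, T43 or T22 was left out, with log2 differences from 0.68 to 0.82. It was also lost with no filter (0.132), without the variance trend (0.188) and in the cultures T22, T32, T33 and T43 alone (0.0611). With culture as a fixed block it was kept (adjusted p = 0.00277, 2.14% of all genes called). In WT cultures alone the log2 difference was 0.97 (adjusted p = 0.0279, 0.571% of all genes called), and in KI cultures alone it was 0.55 (adjusted p = 0.44, 0.402% of all genes called). The difference between these responses, -0.42 (95% CI -0.98 to 0.14), did not pass the interaction test (adjusted p = 1). The microglia marker sum was also higher with IL-4 in 6 of 6 cultures (39420 to 39930 TPM untreated and 43910 to 52720 TPM with IL-4 in WT, 17180 to 34450 and 28030 to 38570 TPM in KI), with 14 of 18 estimates positive, 1 marker called higher and 1 lower, and its part in the *Aplp2* difference was not tested. The endothelial marker sum was higher with IL-4 as well, at 19.4 to 29.1 TPM in untreated libraries and 61.0 to 141.1 TPM with IL-4. Most of it was *Flt1*, which reached 131.6 TPM, against at most 9.19 TPM for *Pecam1* and 0.334 TPM for *Cdh5*. Of the 2 tested, 1 was called higher, and the defining markers *Cldn5* and *Tek* were at 0. The 10 astrocyte markers had 0 calls for IL-4, and with their sum as a covariate the *Aplp2* difference was 0.75 (adjusted p = 0.00248).

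**Figure D4:**
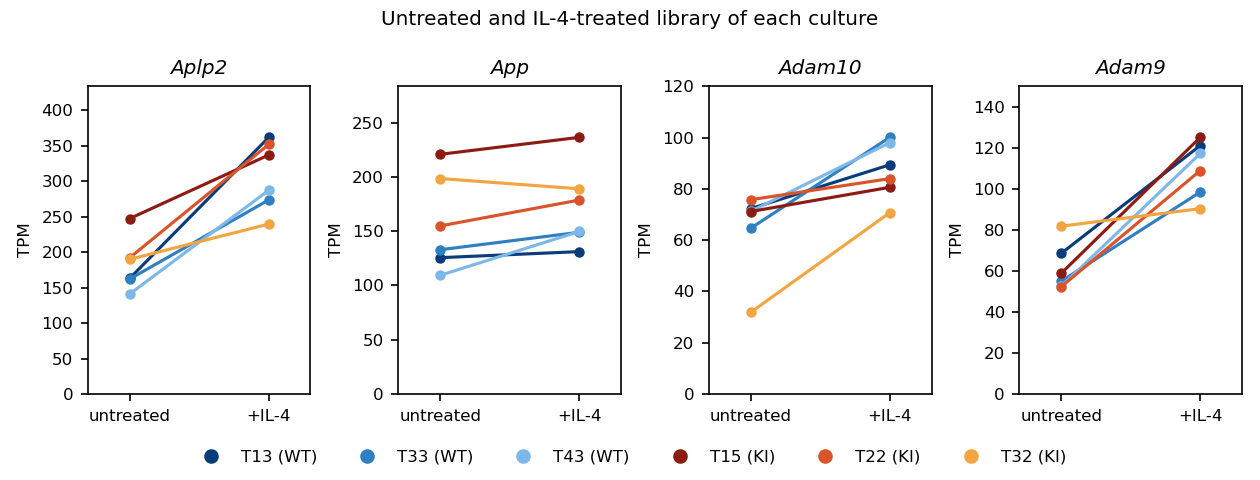
TPM of *Aplp2*, *App*, *Adam10* and *Adam9* (vertical axes, linear from 0) in the untreated and the IL-4 library of each of the 6 cultures, joined by a line. All 6 lines rise for *Aplp2*, *Adam10* and *Adam9*, and for *App* 5 lines rise, by 1.05 to 1.37 times, and that of T32 falls slightly.

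*App* itself showed a small IL-4 estimate. It was higher in 5 of 6 cultures, by 1.05 to 1.37 times, and lower in T32, at 0.952 times its untreated level. The log2 difference was 0.15 (SE 0.12, 95% CI -0.11 to 0.42, adjusted p = 0.985), and 0.10 without T43. The ratio of *Aplp2* to *App* TPM was 1.27 ± 0.04 in untreated WT cultures and 2.17 ± 0.51 in IL-4-treated WT cultures (SD, n = 3). In KI cultures it was 1.11 ± 0.14 untreated and 1.56 ± 0.37 with IL-4, and within each of the 6 cultures it was higher with IL-4.

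*Adam10* was also higher with IL-4 in 6 of 6 cultures, by 1.24, 1.55 and 1.38 times in WT and by 1.13, 1.11 and 2.22 times in KI, in the same order of cultures. The 2.22 times of T32 starts from its low untreated value. The averaged log2 difference was 0.47 (SE 0.19, 95% CI 0.07 to 0.88) and did not pass the test (adjusted p = 0.751), and it was 0.31 without T32. Being higher in all 6 cultures held for 2 of the 9 genes, *Aplp2* and *Adam10*, and for 5.73% of all tested genes. The WT values of *Adam17* were 68.3, 61.5 and 72.1 TPM untreated and 78.3, 84.8 and 98.8 TPM with IL-4, so that in WT 3 of the 9 genes (*Aplp2*, *Adam10* and *Adam17*) had every IL-4 value above every untreated one, against 10.8% of all genes. In KI this held for 0 of the 9 and for 5.47% of all genes. Over both genotypes the log2 difference of *Adam17* was 0.17 (SE 0.16, adjusted p = 0.963), with 0.37 in WT and -0.02 in KI alone.

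Averaged over genotypes, *Bace1* and the gamma-secretase genes had IL-4 estimates near 0. *Bace1* was higher in 3 cultures and lower in 3, with a log2 difference of 0.06 (SE 0.36, 95% CI -0.71 to 0.82), an interval that leaves room for changes in either direction. The log2 differences were 0.07 for *Psen2*, 0.10 for *Ncstn*, -0.06 for *Aph1a* and 0.13 for *Psenen*, with adjusted p-values from 0.987 to 1. Their intervals reached at most 0.47 on the log2 scale upwards (*Ncstn*) and -0.34 downwards (*Aph1a*). In KI alone the log2 difference was 0.29 for both *Psen2* and *Ncstn*. In WT alone it was -0.15 and -0.08, and none of these passed the threshold. At an unadjusted p under 0.05 the IL-4 test gave 1 of the 9 genes, *Aplp2*, and 7.27% of all genes.

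No member was called for the interaction of genotype and IL-4 in limma's test, in which 0% of the 11204 genes were called. At an unadjusted p under 0.05 it gave 0 of the 9 genes and 3.19% of all genes. The estimates ran from -0.42 for *Aplp2* to 0.44 for *Psen2* (SE 0.35), on the log2 scale, and those of *Adam17* and *Ncstn* were -0.39 (SE 0.33) and 0.37 (SE 0.34). With single cultures left out that of *Psen2* ran from 0.19 (without T22) to 0.68 (without T43), and that of *Ncstn* from 0.25 to 0.55. With SEs of this size a difference in response as small as these estimates was not detectable.

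The other genes of the pathway were taken from 5 lists. Of 6 further substrate and secretase genes, all tested, 0 were called for genotype (1.65% of all genes) and 1 was called higher with IL-4 (0.893% of all genes). That gene was *Adam9*, which encodes a metalloprotease with reported alpha-secretase activity. *Adam9* stood at 52.3 to 81.8 TPM in untreated libraries and at 90.4 to 125 TPM with IL-4, without overlap. Its log2 difference was 0.84 (SE 0.15, adjusted p = 0.0322), and it was higher in 6 of 6 cultures. Its call was kept without T32 (adjusted p = 0.0191) and lost without T13, T33, T43, T15 or T22 (adjusted p 0.0565 to 0.331), with no filter (0.132) and without the variance trend (0.173). The median log2 difference of the list was 0.24 by genotype and 0.24 for IL-4, against 0.13 and 0.04 over all genes tested.

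Of 16 secretase partners and regulators, 15 were tested and 0 were called for genotype or IL-4 in the main fits. For this list and the next pair, the shares over all genes were 1.65% and 0.893%. The most abundant were *Tmed10*, a cargo receptor that also binds presenilin complexes, and *Rtn3*, a reticulon that binds BACE1. *Tmed10* ranged from 249.8 to 413 TPM, with a log2 difference by genotype of -0.06 (adjusted p = 0.967). *Rtn3* ranged from 142 to 238 TPM, with a log2 difference of 0.32 (SE 0.12, adjusted p = 0.343). Some alternatives called genes of this list for genotype. Under quantile normalization *Gsap* was called lower (log2 difference -0.97, adjusted p = 0.0369, 146 of 11204 genes called), against -0.76 (adjusted p = 0.116) in the main fit. *Tspan15* was called higher with the filter at 3 (adjusted p = 0.0494, 179 of 8085 genes called). Both are named after their values were seen. Of 15 adaptor and sorting genes, 13 were tested and 0 were called. *Itm2b* and *Itm2c*, whose products bind App and hinder its cleavage, led this list, and *Itm2b*, at 2915 to 4938 TPM, was far above *App* in every library. *Itm2b* had a log2 difference by genotype of -0.17 (adjusted p = 0.78) and *Itm2c* of 0.07 (adjusted p = 0.949). Of 12 amyloid-beta-degrading enzymes, 8 were tested and 0 were called. The lysosomal proteases *Ctsd*, at 16864 to 34659 TPM, and *Ctsb*, at 6608 to 15006 TPM, led it, with log2 differences by genotype of -0.05 (adjusted p = 0.964) and -0.13 (adjusted p = 0.956). The median log2 differences of these 3 lists were 0.02, 0.16 and 0.12 by genotype and 0.14, 0.08 and -0.22 for IL-4.

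The last list held other substrates of these proteases. Of 16 such genes, 15 were tested, 2 were called higher in KI and 2 lower, and 0 were called for IL-4, where 1.65% and 0.893% of all genes were called for genotype and IL-4. The 185 genotype calls over all genes were 145 higher and 40 lower. *Hbegf*, a growth factor precursor shed by ADAM proteases, was at 11.2 to 38.4 TPM in WT and 68.9 to 156 TPM in KI (log2 difference 2.32, SE 0.27, adjusted p = 0.00555). *Cdh2*, N-cadherin and a substrate of ADAM10, was at 7.15 to 32.3 TPM in WT and 44.0 to 132 TPM in KI (log2 difference 2.04, SE 0.38, adjusted p = 0.0369), and neither gene's genotypes overlapped. *Cdh2* lost its call with culture as a random block (adjusted p = 0.0572) and with the astrocyte covariate (log2 difference 1.27, adjusted p = 0.14), while *Hbegf* kept it (adjusted p = 0.0103 and 0.0152). *Hbegf* lost its call without T33 (adjusted p = 0.0555) and with no filter (0.0762). *Cdh2* lost it without each culture but T13 (adjusted p 0.0572 to 0.205), when genes of all levels were tested (0.283) and without the variance trend (0.101). The substrates called lower were *Trem2*, the modified gene, and *Csf1r*, the receptor on which microglia depend and also 1 of the 18 microglia markers. *Csf1r* was at 587 to 951 TPM in WT and 307 to 640.0 TPM in KI (log2 difference -0.83, SE 0.16, adjusted p = 0.0408), and it lost its call with the random block (adjusted p = 0.0648), with the astrocyte covariate (adjusted p = 0.154) and without any 1 of the 6 cultures (adjusted p 0.0504 to 0.205), as well as with the pseudocount of 0.1 (0.0561), under quantile normalization (0.0501), with no filter (0.262) and without the variance trend (0.149). The median log2 difference of the list was -0.05 by genotype and 0.23 for IL-4.

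*App* and *Aplp2* followed different genes across the 12 libraries. By Pearson correlation of log2(TPM + 1), the genes most like *App* were *Bag3*, a co-chaperone (r = 0.97), *Zfp703*, a zinc finger protein gene (r = 0.95), and *Vim*, the intermediate filament vimentin (r = 0.95). *Vim* was at 227 to 395 TPM in WT and 603 to 1125 TPM in KI. The genes most like *Aplp2* were *Pcyox1l* (r = 0.94), *Socs1*, a suppressor of cytokine signalling (r = 0.93), and *Arhgap12* (r = 0.91), and *Socs1* and *Pcyox1l* were themselves called higher with IL-4 (adjusted p = 8.9e-05 and 0.0219). *App* and *Aplp2* correlated at r = 0.48 with each other, and *App* with *Bace1* at r = 0.79. These correlations are descriptions, since the 12 points share cultures, treatments and marker levels, and the median r with *App* over all genes tested was 0.21.

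On the GRCm38 annotation, *App* lies at chr16:84949685-85173766 (minus strand) and *Aplp2* at chr9:31149557-31211815 (minus strand), on the chromosome that also carries *Adam10* at chr9:70678997-70780229 and *Bace1* at chr9:45838580-45864399 (both plus strand). *Adam17* lies at chr12:21323509-21373632, *Psen2* at chr1:180227004-180263438, *Ncstn* at chr1:172066013-172082795 and *Psenen* at chr7:30561863-30563627 (all minus strand), and *Aph1a* at chr3:95893969-95898288 (plus strand). Values are per gene, summed over its transcripts, so they do not say which isoform or exon carried a difference. Besides *Bace1*, exons overlap a gene on the opposite strand for *Aph1a* (445 of 3450 bases with *Car14*), *Adam17* (311 of 7154 with *Iah1*), *Ncstn* (195 of 3975 with *Copa*), *Psenen* (119 of 1275 with *U2af1l4*) and *App* (113 of 12996 with *Gm49227*). No such overlap was found for *Aplp2*, *Adam10* or *Psen2*.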

How the data were processed

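RNA-seq libraries of primary microglia, 12 from 6 cultures, were analysed. The authors used Trim Galore for trimming, Salmon with the Ensembl GRCm38 transcripts for quantification and tximport to sum transcripts to genes. The deposited values are TPM per gene and library, and the versions of these tools are not given in the sources used here. cDNA was poly(A)-primed and the kit does not mark strand. TPM keeps no read counts, so the depth behind a value is unknown and the error given is that among cultures. The authors tested counts with DESeq2's likelihood-ratio test; the terms that test compared are not spelled out, and on TPM limma's F-test of each factor with its interaction was chosen in its place. A test of the averaged difference alone is given as an alternative, and it changes the call of *App*.

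Gene symbols matched 48350 of 48623 identifiers. For a symbol with several identifiers, that of the highest mean TPM was kept. log2(TPM + 1) of the 11204 genes with a mean above 1.5 was fitted with limma 3.58.1 in R 4.3.3 (eBayes with a variance trend) with genotype, IL-4 and their interaction over all 12 libraries. Genotype and IL-4 were each tested with the interaction by an F-test, and the log2 difference given is the average over the other factor. A fold change on this scale understates the change of low genes. p-values were adjusted by Benjamini-Hochberg over all genes tested, with a threshold of 0.05. Summaries and plots used Python 3.11.15, numpy 2.4.6, pandas 2.3.3 and matplotlib 3.10.9. Tested on simulated data, in which 200 of 11204 genes differed by a log2 value of 2, the fit found 72.5% of the genotype changes, 79.5% of the IL-4 changes and 41.5% of the interactions.

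The untreated and IL-4 libraries were paired by the culture number in the sample names. Deviations from the group means correlated within cultures at 0.0792 to 0.378. T22 correlated better (0.188) with another culture's library than with its own (0.121). The fits given ignore the culture, which for genotype counts 2 libraries per culture as if from different cultures. Fits with it as a block are alternatives.

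The 9 genes, the pathway lists and the markers were chosen with earlier results of these data known. From the lists, the genes named are those past the threshold and the 2 with the highest mean TPM in each. For *App* and *Aplp2*, the 3 genes with the highest correlation are named. *Trem2* is named as a check of the genotype labels. Results for some genes that this rule names are not reported here. Promoter windows are from RefSeq (GRCm38.p6) and gene coordinates and exon overlaps from GENCODE on GRCm38. Alternatives were another pseudocount (0.1), no filter or one at 3, median-ratio scaling, quantile normalization, a fit without the variance trend, each culture left out, the replicate block, and other contrasts. The astrocyte covariate and the fit to 4 cultures were added after the data were seen.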

Additional observations from a re-analysis of the deposited data

How the results depend on the processing

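Of 456 refits of single differences of the 9 genes, 416 kept their direction and their side of the threshold, 30 turned in sign, 8 lost a call and 2 gained one. For genotype, 1 member (*App*) was called in the 1-coefficient test, and 0 to 1 when each culture was left out. For IL-4, 0 members were called with no filter (*Aplp2* adjusted p = 0.132), no variance trend (0.188), KI cultures alone (0.44) and the 4 cultures T22, T32, T33 and T43 (0.0611), and 0 to 1 when each culture was left out. The cause was not tested. Over all 18 refits the adjusted p of *App* for genotype ran from 0.0221 to 0.385, and that of *Aplp2* for IL-4 from 0.00248 to 0.44.

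With the replicate block (random for genotype, fixed for IL-4) members called stayed at 0 for genotype and 1 for IL-4, while calls over all genes fell from 185 to 77 for genotype and rose from 100 to 240 for IL-4. It changed no other call of a member. Calls over all genes for genotype were 3 without T33, 16 without T43, 48 without T15, 79 without T32, 180 without T22, 192 without T13, 16 with no filter, 26 with no variance trend, 53 with the astrocyte covariate, 102 in untreated and 2 in IL-4-treated libraries, and 575 in the 1-coefficient test. Those for IL-4 were 46 to 144 with a culture left out, 61 with no filter, 50 with no variance trend, 187 with the astrocyte covariate, 64 in WT, 45 in KI, and 151 in the 1-coefficient test. The interaction gave 0 calls except for 4 with no filter and 1 in the 4 cultures. The median genotype difference of all genes was 0.13 on the deposited scale, -0.06 under quantile normalization and -0.01 under median-ratio scaling, and that of *App* was 0.47 and 0.40 under these. Calls higher and lower in KI were 145 and 40 on the deposited scale, and 90 and 56, and 103 and 73, under these 2 scalings.

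Signs turned for small differences. By genotype these were *Aplp2* (-0.0003) and *Psen2* (0.035) in IL-4-treated libraries, *Ncstn* under quantile normalization (-0.063), median-ratio scaling (-0.090) and in untreated libraries (-0.13), and *Psenen* in the 4 cultures (0.05). For IL-4 they were *Adam17* (-0.024) and *Bace1* (-0.067) in KI, *Bace1* under quantile normalization (-0.0092) and in the 4 cultures (-0.045), and *Psen2* (-0.15), *Ncstn* (-0.083) and *Aph1a* (0.011) in WT. The interaction of *Aph1a* was 0.052 in the 4 cultures. With each culture left out, the genotype difference ran from -0.054 to 0.28 for *Ncstn* and from -0.16 to 0.12 for *Psenen*. That for IL-4 ran from -0.12 to 0.21 for *Bace1*, from -0.053 to 0.17 for *Psen2* and from -0.17 to 0.0049 for *Aph1a*. The interaction ran from -0.30 to 0.19 for *Adam10*, from -0.55 to 0.10 for *Bace1* and from -0.023 to 0.18 for *Psenen*. *Bace1* was not tested with the filter at 3. The depth of the libraries is unknown, so what counting error adds to *Bace1*, at 2.18 to 14.3 TPM, cannot be given.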

Other observations

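Several genes of the lists had estimates by genotype larger in size than that of *Bace1* (0.88), the largest among the 9 genes, without passing the main test. They are named here after their values were seen. *Tspan15*, a tetraspanin that directs ADAM10 to N-cadherin, was at 0.865 to 10.2 TPM in WT and 10.3 to 34.1 TPM in KI libraries (log2 difference 2.12, SE 0.44, adjusted p = 0.0573). *Apbb1*, the App-binding adaptor Fe65, was at 1.72 to 7.89 TPM in WT and 5.54 to 36.5 TPM in KI (log2 difference 2.18, SE 0.45, adjusted p = 0.0568). With the filter at 3, a fit that called 179 of 8085 genes, *Tspan15* and *Apbb1* passed (adjusted p = 0.0494 and 0.0492). *Timp3*, an inhibitor of ADAM17, was at 12.4 to 50.1 TPM in WT and 47.9 to 329 TPM in KI (log2 difference 2.16, SE 0.49, adjusted p = 0.0802). *Bace2* was at 0.201 to 5.06 TPM in WT and 2.87 to 25.0 TPM in KI (log2 difference 1.86, SE 0.54, adjusted p = 0.184), and *Plat*, tissue plasminogen activator, was at 0.950 to 11.8 TPM in WT and 4.54 to 73.2 TPM in KI (log2 difference 2.21, SE 0.62, adjusted p = 0.164). The highest value of *Tspan15*, *Timp3*, *Bace2* and *Plat* was that of untreated T15, and of *Apbb1* that of IL-4-treated T15, the culture with the highest astrocyte marker sums. *Cx3cl1* (2.09, adjusted p = 0.168), *Notch1* (1.53, adjusted p = 0.181), *Sorl1* (0.99, adjusted p = 0.461) and *Rhbdf1* (0.98, adjusted p = 0.349) also had log2 differences above that of *Bace1*, and *Tspan33*, another tetraspanin, had one of the opposite sign, at 10.2 to 42.1 TPM in WT and 5.32 to 32.2 TPM in KI (-1.08, SE 0.36, adjusted p = 0.26).

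The ratio of *Adam10* to *Bace1* TPM was 21.6 ± 2.59 in untreated WT and 7.86 ± 3.23 in untreated KI cultures (SD, n = 3), and these groups did not overlap. With IL-4 it was 28.4 ± 15.7 in WT and 12.5 ± 6.31 in KI cultures, with overlap. The ratio was chosen after its values were seen and was not tested, and neither gene was called for genotype. Among untreated KI cultures its lowest value, 5.18, was that of T32, with its low *Adam10* level of 31.9 TPM. T15, with the highest astrocyte marker sums, followed at 6.95. *Bace1* was at only 2.90 to 10.2 TPM in untreated libraries.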
